A study of Mus musculus with 2 samples.

Results

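The genes described here encode mitochondrial ribosomal proteins, the proteins of the ribosome that works inside mitochondria. They were taken as every probe set whose platform annotation gave a single gene symbol starting with Mrpl or Mrps and a number. This gave 156 probe sets for 76 genes, 47 Mrpl genes named for the large subunit and 29 Mrps genes named for the small subunit, of 18193 genes named on the array. The rule reads the symbols alone.

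Expression was measured on 2 Affymetrix 3' arrays from mouse E14 cells, an established embryonic stem cell line. In the Mll2 shRNA group, cells were infected for 24 h with lentivirus carrying a short hairpin RNA against Mll2, a histone H3 lysine 4 methyltransferase, and puromycin selection followed for 5 days. In the other group, E14 cells received lentivirus with a control shRNA. The labels name no clone, and their protocol gives the infection and selection times only for the Mll2 virus. Each group had 1 array, so the differences below have no replicates behind them and no test was possible. Every comparison describes these 2 RNA samples.

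The mitochondrial ribosome makes the few proteins encoded by mitochondrial DNA, all of them membrane subunits of the respiratory chain and ATP synthase. Its ribosomal RNAs come from mitochondrial DNA, whereas all of its proteins are encoded in the nucleus, made in the cytosol and imported. Compared with its bacterial relative it has lost ribosomal RNA and gained proteins, so that some subunits have bacterial counterparts and others exist only in mitochondria. Defects in several of these genes cause mitochondrial disease in humans.

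Values are deposited log2 signals, and a ratio is the log2 value of the Mll2 shRNA array minus that of the control array. A floor was set at the median of all values of both arrays, 6.02 on the log2 scale. A gene counted as measured when a probe set lay above it on either array, and its brightest probe set stands for it. The medians of the arrays were 6.01 and 6.02. Kmt2d, a gene that has carried the name Mll2, was at 8.39 with the Mll2 shRNA and 9.52 with the control shRNA, 2.20-fold lower (ratio -1.14). Kmt2b, the other gene called Mll2, was at 9.74 and 9.82. The labels do not say which of these genes the shRNA targets, so the knockdown itself rests on the label. All 10 embryonic stem cell markers were above the floor on both arrays, from 8.57 to 14.64 with the Mll2 shRNA and from 9.01 to 14.86 with the control shRNA. All but Sox2 (ratio 0.07) differed by more than their spread, in both directions. Klf4, Esrrb, Nanog and Zfp42 were higher with the Mll2 shRNA (ratios 0.59, 0.53, 0.47 and 0.21). Pou5f1, Tcl1, Utf1, Tdgf1 and Dppa5a were lower (-0.44, -0.44, -0.41, -0.37 and -0.22). Another Esrrb probe set, at 9.48 and 9.71, went the opposite way (-0.22). Of 8 feeder or fibroblast markers, Dcn, Lum, Postn and Thy1 were below the floor on both arrays. The summed signal of the 4 measured ones, most of it from Vim, was 14.04 on the log2 scale with the Mll2 shRNA and 13.65 with the control shRNA. The summed signal of 4 neural markers was 10.59 against 10.39. Sox1 was at 8.16 and 6.83 (ratio 1.33, spread 0.46) in its only probe set above the floor. Pax6, Tubb3 and Nes lay within their spread (ratios 0.06, 0.22 and -0.29), and another Nes probe set had a ratio of -0.51. The summed signal of the measured primitive endoderm markers was 9.02 against 9.15 and of mesoderm markers 8.0002 against 8.1551. Gata4, Pdgfra and Mixl1 were below the floor on both arrays. The log2 signal of the 3' Actb probe set exceeded that of the 5' one by 0.77 with the Mll2 shRNA and 0.96 with the control shRNA. For Gapdh the same difference was 0.06 and 0.05. The part of these differences in the ratios below was not tested.

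All 76 mitochondrial ribosomal protein genes were measured, and all lay above the floor on both arrays. Most were slightly lower in the Mll2 shRNA array. The ratio was below 0 in 53 genes (69.7%) and above 0 in 23, where 46.5% of all 11805 measured genes were below 0 and 53.5% above. The median ratio was -0.13, with a middle range from -0.28 to 0.01, against a median of 0.03 over all measured genes. No member differed by 1.5-fold in either direction, and the largest difference was 1.47-fold. Among all measured genes, 4.71% were at least 1.5-fold lower and 7.41% at least 1.5-fold higher, and 0.983% and 1.47% reached 2-fold. In such bulk RNA, a change in every cell and a change in some of the cells cannot be told apart.

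**Figure D1:**
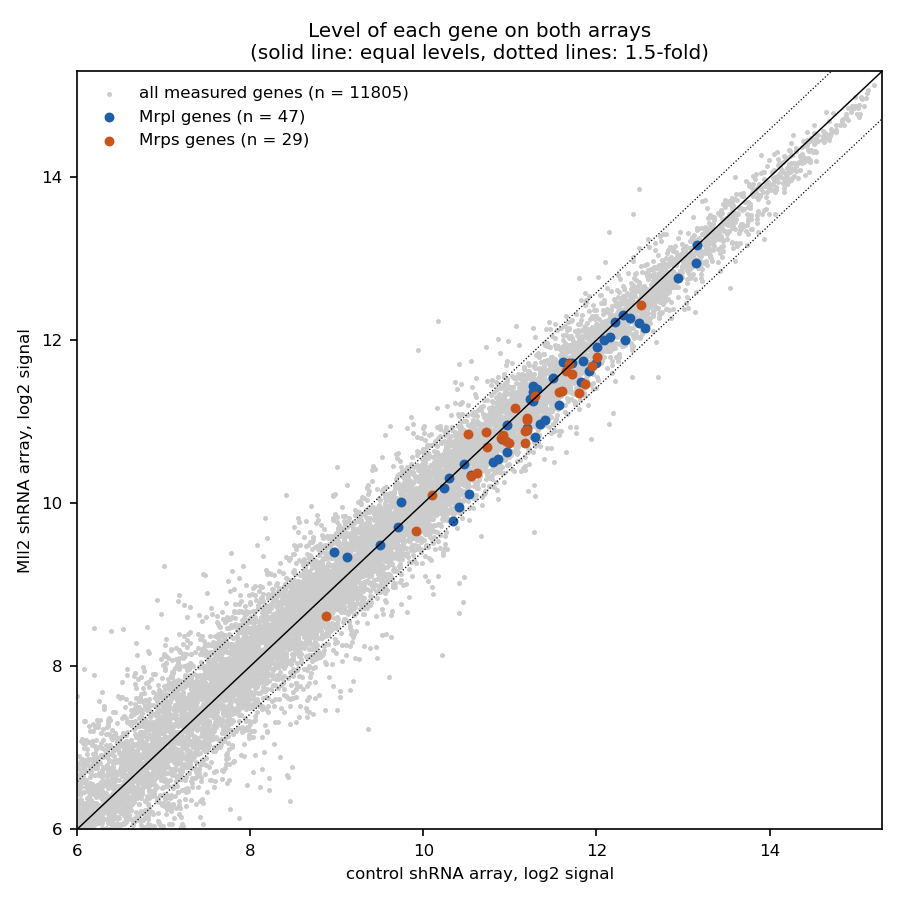
Log2 signal of each measured gene in the control shRNA array (horizontal axis) and the Mll2 shRNA array (vertical axis), with Mrpl genes in blue, Mrps genes in orange and all 11805 measured genes in grey. Axes start at 6, so genes below that value on an array are not drawn. All 76 members lie inside the dotted lines that mark 1.5-fold, and 53 lie below the solid line of equal levels.

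The members were bright, with mean log2 levels of the probe sets used from 8.74 to 13.17. The 5943 other genes within that range of level had a median ratio of 0.02, and 46.5% of them were below 0, the same share as over all genes. To judge sizes without replicates, each ratio was set beside the spread at its level, a robust SD taken over the 500 genes closest to it in level, which holds real differences as well as noise. At the members' levels this spread ran from 0.19 to 0.34. By this measure 22 members (28.9%) were lower by more than the spread and 2 (2.63%) were higher by more than it, and the other 52 lay within it. Over all measured genes the shares were 12.6% lower and 17.4% higher.

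The direction of the members against other genes was similar under every scaling tried, but their direction against 0 was not. Median centring gave a members' median of -0.12, quantile normalization -0.13 and loess -0.12. Scaling on the 18 bacterial spike-in probe sets, which were lower by 0.12 on average in the Mll2 shRNA array, moved the median of all measured genes to 0.14 and that of the members to -0.01. With this scaling 39 members were below 0 and 37 above. Relative to the median of all genes, the members' median was -0.15 with spike-in scaling and -0.15 as deposited, and ran from -0.15 to -0.14 under the other 3 scalings. Median centring and spike-in scaling shift a whole array by a constant, so they could hardly alter this distance. Only quantile normalization (-0.14) and loess (-0.14) could have done so. Individually, 39 members were below 0 and 19 above 0 under all 5 scalings, and 18 changed sign. The counts beyond the spread hold for the deposited values only. With spike-in scaling Mrpl18, Mrpl22, Mrpl23, Mrpl35, Mrpl40 and Mrpl45, among others, came within the same spread (ratios from -0.25 to -0.16). Mrpl48, Mrpl58 and Mrpl2 then lay above it (0.39, 0.29 and 0.24).

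**Figure D2:**
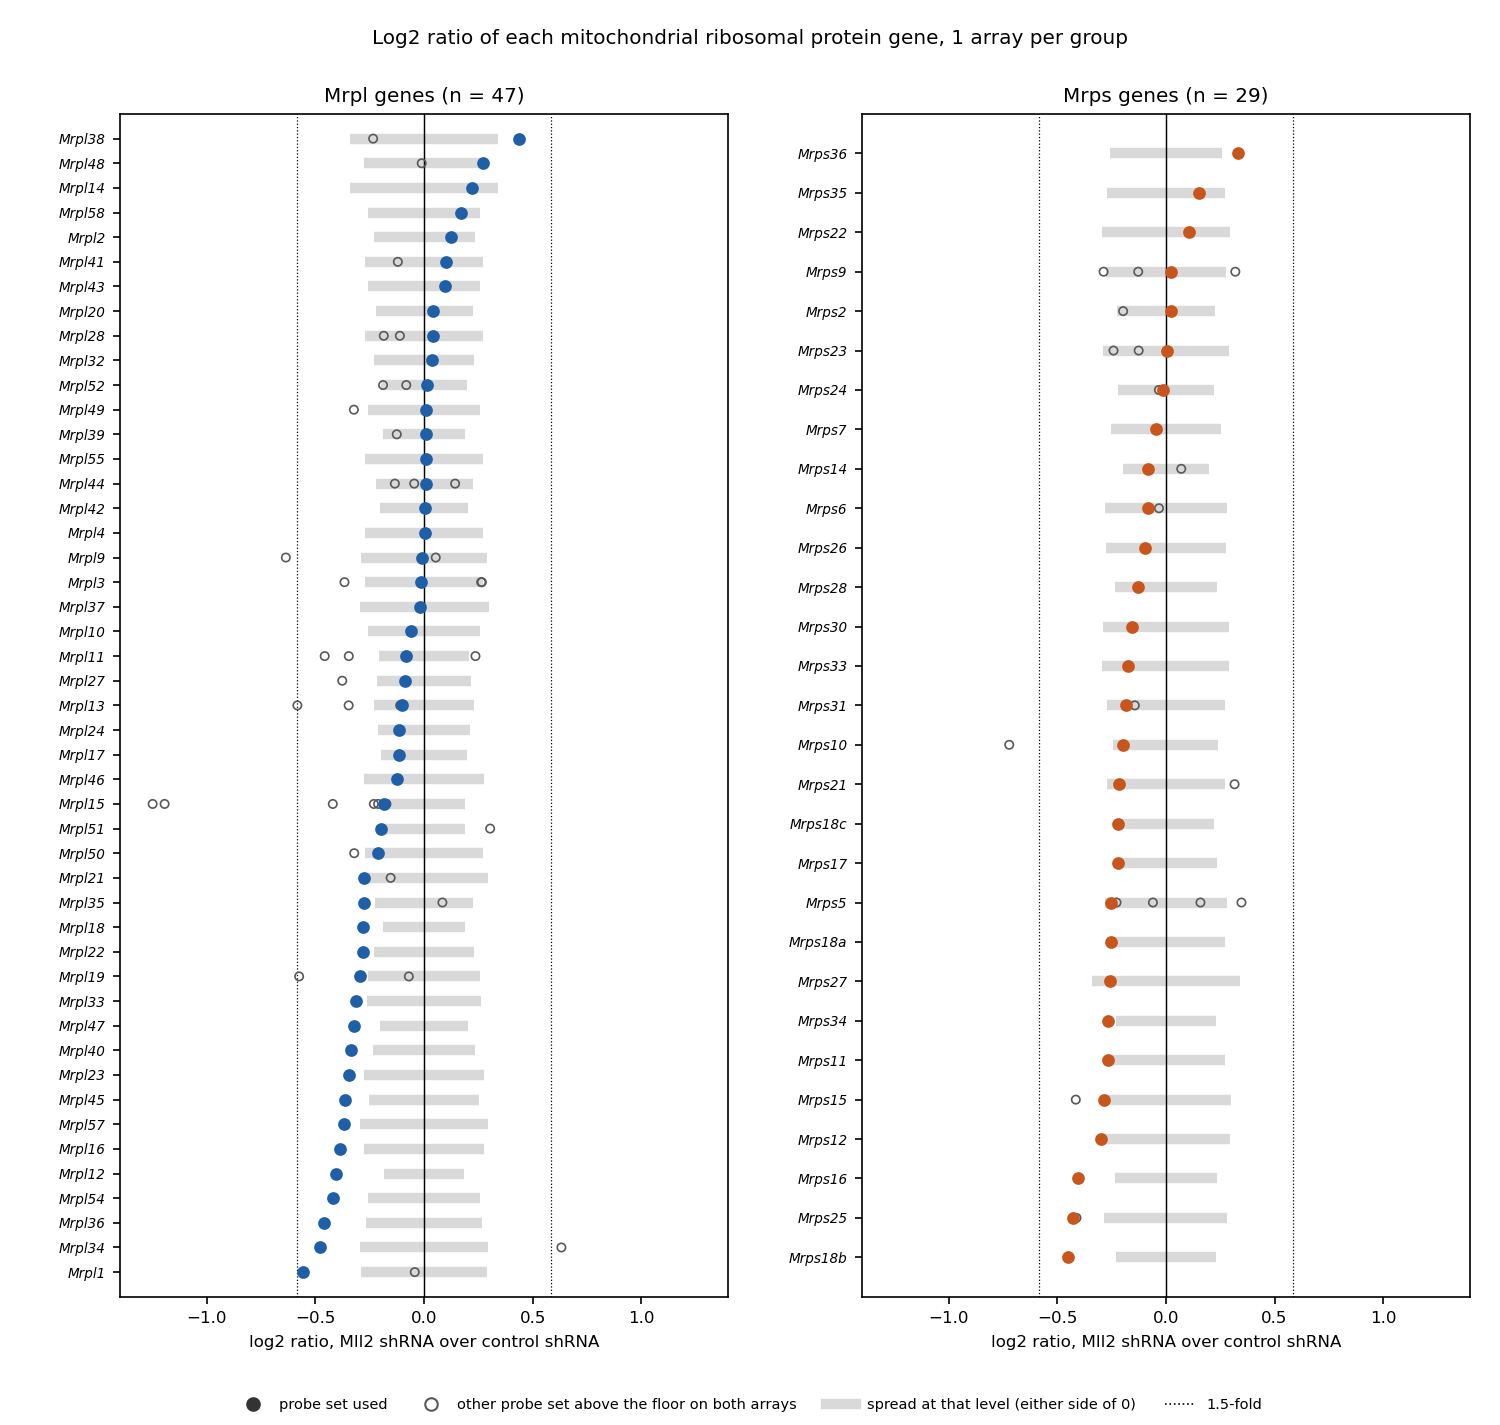
Log2 ratio (Mll2 shRNA over control shRNA) of each Mrpl gene (left, blue) and Mrps gene (right, orange), in order of the ratio in the probe set used. Open circles are other probe sets of the gene above the floor on both arrays, grey bars the spread at that gene's level on either side of 0, and dotted lines 1.5-fold. Filled points run from -0.56 for Mrpl1 to 0.44 for Mrpl38, and 22 lie left of their grey bar and 2 right of it.

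In the large subunit, the Mrpl genes had a median ratio of -0.10, with 30 of 47 below 0. Of these, 17 were lower by more than the spread and 1 was higher by more than it. The median became 0.02 with spike-in scaling and stayed below 0 under the other scalings. The lowest ratio of all belonged to Mrpl1, the protein of the mobile L1 stalk that handles tRNA leaving the ribosome. It was at 9.79 with the Mll2 shRNA and 10.34 with the control shRNA, 1.47-fold lower (ratio -0.56, spread 0.29). The array with the Mll2 shRNA was thus the lower one in this probe set, but a second Mrpl1 probe set was at 9.23 and 9.28 and hardly differed. A further, dim one lay above the floor only in the Mll2 shRNA array, where it was at 6.43. The Mrpl1 probe sets that both arrays detected, 2 in number, averaged -0.30 ± 0.36 (SD).

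Mrpl34, a small protein bound to ribosomal RNA with a counterpart in bacteria, was at 10.81 with the Mll2 shRNA and 11.29 with the control shRNA, ratio -0.48 (spread 0.29). A dim second Mrpl34 probe set, at 6.69 and 6.05, went the opposite way with a ratio of 0.63, so that the direction of Mrpl34 depends on the probe set. Mrpl36, another small protein with a bacterial counterpart, has 1 probe set and was at 9.95 and 10.41, 1.38-fold lower (spread 0.27). Mrpl54, found only in mitochondrial ribosomes, was at 10.11 and 10.53, 1.34-fold lower (spread 0.26). For Mrpl36 and Mrpl54 no other probe set above the floor was at hand to check the difference.

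The stalk that brings translation factors to the ribosome was represented by Mrpl10, Mrpl11 and Mrpl12. Mrpl12, the mobile stalk protein itself, was at 12.15 with the Mll2 shRNA and 12.56 with the control shRNA, 1.32-fold lower (ratio -0.40), more than its spread of 0.19. The stalk base proteins Mrpl10 and Mrpl11 had ratios of -0.06 and -0.08, well within their spreads of 0.26 and 0.21. Spike-in scaling put Mrpl10 and Mrpl11 above 0 and left Mrpl12 below. A second bright Mrpl11 probe set, at 11.55 and 11.90, had a ratio of -0.35. Another, at 10.15 and 9.92, went the opposite way with 0.24, and a dim one, at 6.15 and 6.61, had -0.46. Both the size and the direction of the Mrpl11 difference thus depend on the probe set.

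The central protuberance, the crown of the large subunit facing the small one, was the group with the widest range of ratios among the 3 structural groups examined. Its 8 members ran from -0.33 for Mrpl40 to 0.44 for Mrpl38, with a median of -0.11 that spike-in scaling turned to 0.01. Mrpl38 was at 9.40 with the Mll2 shRNA and 8.97 with the control shRNA, 1.35-fold higher (spread 0.34), the highest ratio of all members. Its second probe set gave the opposite direction, at 7.41 and 7.64. Mrpl48, also of the central protuberance, was at 10.01 and 9.74, 1.21-fold higher and within its spread of 0.28, while its second probe set was at 9.79 and 9.81. In neither gene did the second probe set repeat the higher value. Toward the other end, Mrpl18, Mrpl35 and Mrpl40 had ratios of -0.28, -0.28 and -0.33, each lower by more than its spread but within it with spike-in scaling. A dim second probe set of Mrpl35 was at 0.08.

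Around the polypeptide exit tunnel, through which new membrane proteins leave the ribosome, 5 of 7 genes were below 0. The median of this group was -0.12, and 0.00 with spike-in scaling. Mrpl45, which anchors the ribosome to the inner membrane, was at 11.21 and 11.57 (ratio -0.36, spread 0.25). The tunnel proteins Mrpl23 and Mrpl22 had ratios of -0.35 and -0.28, both beyond their spread. With spike-in scaling Mrpl45, Mrpl23 and Mrpl22 lay within their spread. Mrpl39 and Mrpl44, the latter related to ribonuclease III, had ratios of 0.01 each. The brightest Mrpl39 probe set read 13.17 with the Mll2 shRNA and 13.16 with the control shRNA.

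Above 0 in the large subunit stood Mrpl14, Mrpl58 and Mrpl2. Mrpl14, a protein of the subunit interface, was at 9.34 and 9.12 (ratio 0.22, spread 0.34). Mrpl58, a peptidyl-tRNA hydrolase that rescues stalled ribosomes and is built into the large subunit, was at 11.44 and 11.27 (ratio 0.17, spread 0.26). Mrpl2, which lies near the peptidyl transferase centre, was at 11.74 and 11.61 (ratio 0.12, spread 0.23). Each of these differences was smaller than the spread at its level as deposited. With spike-in scaling those of Mrpl58 and Mrpl2 were larger than it (0.29 and 0.24). Mrpl37 and Mrpl55, among the members with the dimmest probe sets used, had ratios of -0.02 and 0.01.

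In the small subunit, the Mrps genes had a median ratio of -0.18, with 23 of 29 below 0, 5 lower by more than the spread and 1 higher by more than it. Their median stayed below 0 under all 5 scalings, at -0.06 with spike-in scaling. It was lower than that of the Mrpl genes under each scaling, an order that median centring and spike-in scaling could not change. However, fewer of the Mrps genes were lower by more than the spread (17.2% against 36.2%). The difference between the subunits was not tested. Mrps18b is a vertebrate relative of bacterial S18, but counts here as found only in mitochondria because Mrps18c takes the S18 position. It was at 11.35 with the Mll2 shRNA and 11.80 with the control shRNA, 1.37-fold lower (spread 0.23). Mrps16, which has a bacterial counterpart and whose loss causes a human respiratory chain disorder, was at 11.46 and 11.87, 1.32-fold lower (spread 0.23). Both have a single probe set.

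Mrps25, a small subunit protein found only in mitochondria, was at 10.74 with the Mll2 shRNA and 11.17 with the control shRNA, 1.35-fold lower (spread 0.28). Its second probe set was at 8.05 and 8.46, a nearly equal ratio of -0.41. The 2 probe sets averaged -0.42 ± 0.01 (SD), so that Mrps25 was the member among those beyond the spread whose probe sets lay closest together. Mrps14 and Mrps27, at the bright and dim ends of the probe sets used, had ratios of -0.08 and -0.26, both within their spread.

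Higher values in the small subunit were few. Mrps36 was at 10.85 with the Mll2 shRNA and 10.51 with the control shRNA, 1.26-fold higher, more than its spread of 0.26. It has only 1 probe set, and the protein is now known as a subunit of the 2-oxoglutarate dehydrogenase complex rather than of the ribosome. Without it, the highest ratios among Mrps genes were those of Mrps35, at 10.87 and 10.72 (ratio 0.15), and Mrps22, at 11.17 and 11.06 (ratio 0.11), both within their spread. Mrps18a and Mrps30, which carry small subunit names but sit in the large subunit, had ratios of -0.25 and -0.16, also within their spread.

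Sorting the members by origin gave similar medians in the small subunit. The 16 small subunit genes with a bacterial counterpart had a median of -0.21 and the 10 found only in mitochondria -0.18. Among large subunit genes, the 28 with a bacterial counterpart had a median of -0.12 and the 21 found only in mitochondria -0.02. With loess the latter medians were -0.09 and -0.06, and with spike-in scaling 0.0004 and 0.10, so that the distance between them varied with the scaling. These differences were not tested.

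Probe sets of a gene gave a further view of the error. They are read on the same arrays and can share sequence, so they are not replicates. In 33 members at least 2 probe sets passed the floor on each array, with a median SD of 0.20 over the probe sets of a gene. The brightest and the second probe set differed with an SD of 0.34, against 0.37 over 4713 genes of the array, and had the same sign in 16 of the 33 (48.5%, against 66.1% over all such genes). With ratios this close to 0, the sign of a single member is therefore poorly fixed. As a group the second probe sets were nevertheless mostly lower in the Mll2 shRNA array: 27 of 33 (81.8%) were below 0 with a median of -0.13, whereas over all such genes 46.3% were below 0 and the median was 0.03. Of the 22 members lower by more than the spread, 6 had a second probe set above the floor on both arrays, and it was below 0 in 3.

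Mrpl15, a large subunit protein with a bacterial counterpart, had the most probe sets of all members, 8, and they differed widely in size. Its 4 brightest probe sets had ratios from -0.23 to -0.17, the one used reading 12.76 with the Mll2 shRNA and 12.94 with the control shRNA. A further probe set was at 9.14 and 10.34, a ratio of -1.19, and another at 7.45 and 8.70, a ratio of -1.25. All 7 Mrpl15 probe sets that passed the floor had ratios below 0, and their mean was -0.52 ± 0.48 (SD). Which Mrpl15 transcripts these probe sets detect is not given in the sources used here. Mrpl51, a mitochondria-specific protein of the large subunit, showed no such agreement: its brightest probe set was at 12.95 and 13.15 and its second one at 7.14 and 6.84.

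The promoters of these genes were searched for a few known motifs. RefSeq promoter windows of build GRCm38.p6, from 250 bases before to 50 bases after each annotated start, were found for 67 of the 76 genes (73 windows). Their median ratio of observed to expected CpG was 0.82, close to the 0.75 of promoters of all measured genes and above the 0.38 of all 32851 windows. On both strands, and counting either orientation, the ETS-type motif CCGGAAG, bound by GABP among others, was in 34.2% of the members' windows, against 17% for measured genes and 8.86% of all windows. The motif of NRF1, a regulator of nuclear genes for mitochondrial proteins, was searched as GCGCA, any base and GCGC, and was in 16.4%, against 9.89% and 4.6%. The YY1 motif AAGATGGCG was in 11%, against 2.89% and 1.4%. The E-box CACGTG, bound by Myc among others, was in 9.59% of the members' windows and 10.1% of those of measured genes, and TATAAA in 6.85% and 7.2%. The ETS and NRF1 motifs overlapped in 0 of all windows, where their letters allow an overlap of only a single end base. Both motifs were present in 4 windows of members.

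To show these motifs in place, the 250 bases before the start are printed for a few members. They are the 2 lowest and 2 highest by ratio whose single window holds an ETS or NRF1 motif there. Members on a chromosome that was set aside were not considered. Capitals mark the motif, and each sequence reads 5' to 3' on the gene's strand.
Mrpl34 (chr8:71464676-71464925, strand +): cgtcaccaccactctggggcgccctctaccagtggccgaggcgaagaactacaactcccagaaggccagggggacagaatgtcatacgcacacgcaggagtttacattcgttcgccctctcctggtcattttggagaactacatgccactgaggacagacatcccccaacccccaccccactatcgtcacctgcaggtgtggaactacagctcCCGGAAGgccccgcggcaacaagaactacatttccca
Mrpl12 (chr11:120484387-120484636, strand +): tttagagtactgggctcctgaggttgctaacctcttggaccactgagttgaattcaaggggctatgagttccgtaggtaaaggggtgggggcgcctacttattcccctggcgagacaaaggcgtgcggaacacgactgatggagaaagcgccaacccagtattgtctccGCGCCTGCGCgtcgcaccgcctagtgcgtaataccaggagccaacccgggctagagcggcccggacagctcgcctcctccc
Mrps22 (chr9:98601680-98601929, strand -): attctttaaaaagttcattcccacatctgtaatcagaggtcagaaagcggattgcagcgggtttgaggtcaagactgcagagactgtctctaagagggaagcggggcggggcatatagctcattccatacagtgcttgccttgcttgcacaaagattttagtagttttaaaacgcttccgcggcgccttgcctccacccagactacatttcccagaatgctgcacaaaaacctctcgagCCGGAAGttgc
Mrpl58 (chr11:115403502-115403751, strand +): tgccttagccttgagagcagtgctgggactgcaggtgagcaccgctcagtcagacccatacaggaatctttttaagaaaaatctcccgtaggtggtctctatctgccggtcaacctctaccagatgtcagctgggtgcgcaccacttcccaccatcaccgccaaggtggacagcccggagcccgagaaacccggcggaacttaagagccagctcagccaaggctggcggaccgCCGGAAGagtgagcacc

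In Mrpl34, Mrps22 and Mrpl58 the capitals are the ETS motif, beginning 37, 11 and 17 bases before the start, and in Mrpl12 they are the NRF1 motif, beginning 81 bases before it. The genes were picked for holding a motif, so the motif in each of them is no result. Over the 67 genes, the 25 with the ETS motif in the whole window had a median ratio of -0.22, with 19 below 0, and the 42 without it -0.08, with 28 below 0. The 12 genes with the NRF1 motif had a median of -0.05 and the 55 without it -0.17, and the 8 with the YY1 motif had -0.26 against -0.12 in the other 59. These medians were not tested, the same split was not made over all measured genes, and a motif match does not show binding.

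Among genes of the pathway that encode no Mrpl or Mrps protein, only the regulators of nuclear genes for mitochondrial proteins held a difference of 1.5-fold or more in the probe set used. Ppargc1b, the coactivator PGC-1 beta, was at 7.61 in the control and below the floor, at 5.96, in the Mll2 shRNA array, at least 3.03-fold lower. Myc, a transcription factor that drives ribosome and mitochondrial biogenesis, was at 10.11 and 10.70, ratio -0.59 (spread 0.26). The related coactivator Pprc1 was at 11.25 and 11.74, ratio -0.48 (spread 0.23). Each of these 3 rests on a single probe set. Mycn, the paralogue of Myc, went the other way at 13.05 and 12.71 (ratio 0.33, spread 0.19), although its dimmer second probe set had a ratio of -0.16. Mycn was named after its values were seen. Of the 11 measured regulators 2 were at least 1.5-fold lower and 0 at least 1.5-fold higher, against 4.71% and 7.41% of all measured genes. Myc passed that limit only narrowly. The median of the regulators was -0.04 (0.08 with spike-in scaling).

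Nrf1 itself, named here because of the motif and after its values were seen, had 4 probe sets above the floor that did not agree in direction. The brightest was at 9.91 with the Mll2 shRNA and 10.27 with the control shRNA (ratio -0.35, spread 0.29), and the others had ratios of 0.76, -0.11 and -0.66. The GABP subunit genes Gabpa and Gabpb1, named on the same grounds, had ratios of 0.003 and -0.04, and Yy1 had 0.01.

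The rest of the mitochondrial gene expression machinery was described by 5 further lists. None of the 69 other measured genes in these lists differed by 1.5-fold in the probe set used. The 6 measured genes of the list of other ribosome-related proteins had a median of -0.07. All were below 0 as deposited, but only 2 with spike-in scaling. The lowest was Gadd45gip1, a large subunit protein also called CRIF1, at 9.13 and 9.55 (ratio -0.42, spread 0.33). A dim second probe set of Gadd45gip1 was at 0.12. Chchd1 and Oxa1l, the latter the inner membrane insertase, had ratios of -0.19 and -0.08. The 10 translation factors had a median of -0.07, with the elongation factor Gfm1 at -0.27, the recycling factor Mrrf at -0.26 and Guf1 at 0.24, all within their spread.

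Mitochondrial aminoacyl-tRNA synthetases and related enzymes were spread evenly around 0, with 10 of 19 below it and a median of -0.01. The prolyl enzyme Pars2 was at 8.05 and 7.53 (ratio 0.52, spread 0.41), the tyrosyl enzyme Yars2 at 10.38 and 10.86 (ratio -0.48, spread 0.26), and the seryl enzyme Sars2 at 0.36 within its spread of 0.45. Of the assembly and ribosomal RNA modification factors, 13 of 19 were below 0 with a median of -0.07. In this list the methyltransferases Mrm2 and Mrm1 went opposite ways, with ratios of -0.44 and 0.40 and spreads of 0.37 and 0.45, and the small subunit assembly GTPase Eral1 was at -0.33 (spread 0.29). The 4 other Eral1 probe sets that passed the floor had ratios from -0.23 to 0.08. In the same list, and named after its values were seen, a probe set of the methyltransferase gene Nsun4 other than the one used was at 8.53 and 7.10 (ratio 1.43), while the one used had a ratio of 0.06. Tfb1m likewise had a second probe set at 7.31 and 8.24 (ratio -0.93) beside a ratio of -0.13 in the one used.

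The genes that maintain and process mitochondrial DNA and RNA had a median of -0.15, with 11 of 15 below 0. Elac2, the enzyme that trims the 3' end of mitochondrial tRNAs, was at 9.64 and 10.15 (ratio -0.51, spread 0.28), and its other 2 probe sets had ratios of -0.62 and -0.44. The polymerase subunit gene Polg2 and the transcription elongation factor gene Tefm had ratios of -0.32 and -0.26, within their spread. With spike-in scaling the medians of the maintenance, other ribosome-related, translation factor, synthetase and assembly lists were -0.03, 0.05, 0.05, 0.10 and 0.05.

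**Figure D3:**
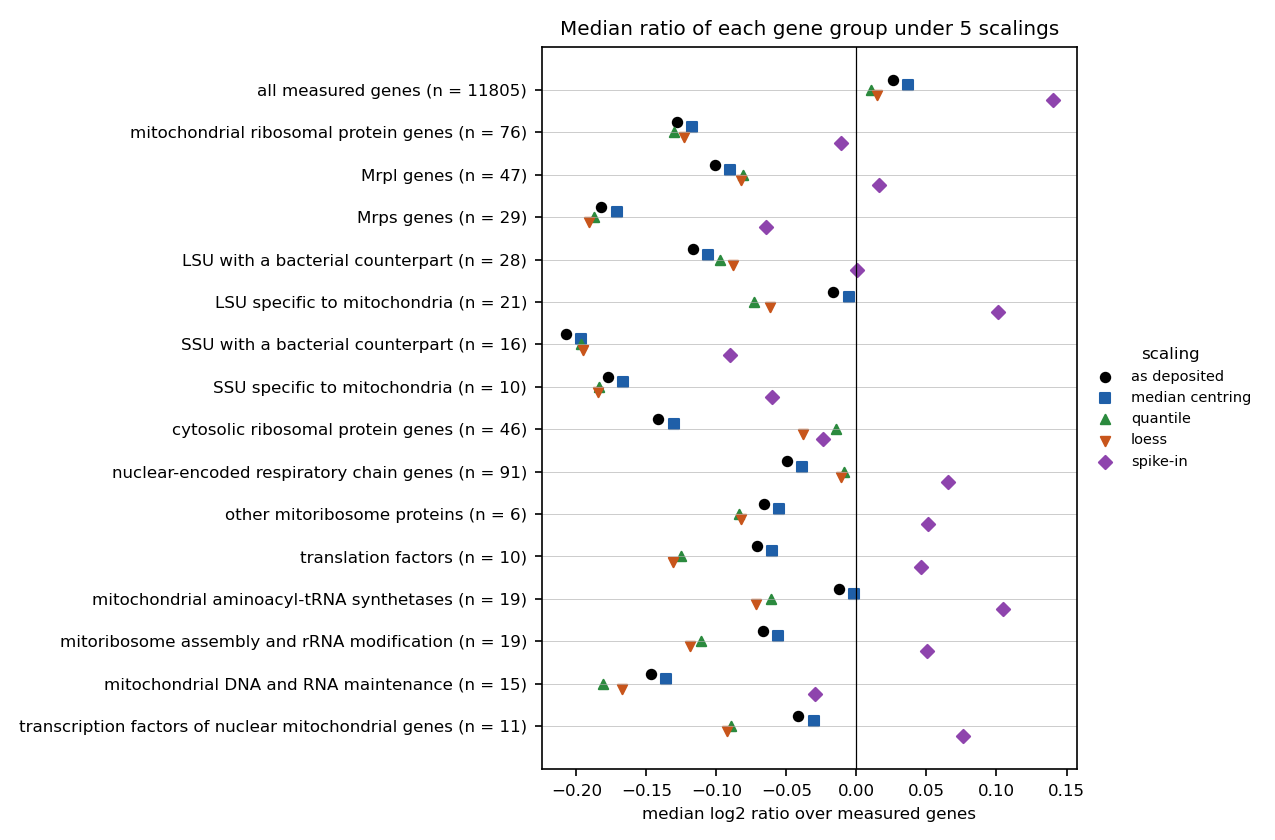
Median log2 ratio (Mll2 shRNA over control shRNA) of each gene group under 5 scalings, with the number of genes measured as deposited in brackets; LSU is the large and SSU the small subunit. Spike-in scaling shifts every group to the right, the members from -0.13 to -0.01, together with all measured genes, which move from 0.03 to 0.14.

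Cytosolic ribosomal protein genes and nuclear-encoded respiratory chain genes are the nearest relatives in function. The 46 measured cytosolic ribosomal protein genes had a median of -0.14 and 93.5% were below 0, and the 91 respiratory chain genes had a median of -0.05 with 62.6% below 0. Quantile normalization brought these medians to -0.01 and -0.01, and loess to -0.04 and -0.01, while the median of the mitochondrial ribosomal proteins was -0.13 and -0.12. With median centring the cytosolic, respiratory chain and mitochondrial ribosomal medians were -0.13, -0.04 and -0.12. With spike-in scaling they were -0.02, 0.07 and -0.01. Probe sets of cytosolic ribosomal protein genes reach a mean level of 15.17, beyond the 13.17 reached by the members. Lower by more than the spread were 41.3% of the cytosolic ribosomal protein genes, 17.6% of the respiratory chain genes and 28.9% of the mitochondrial ribosomal protein genes. No difference between these groups was tested, and with 1 array a group none can be called particular to the mitochondrial ribosome.

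**Figure D4:**
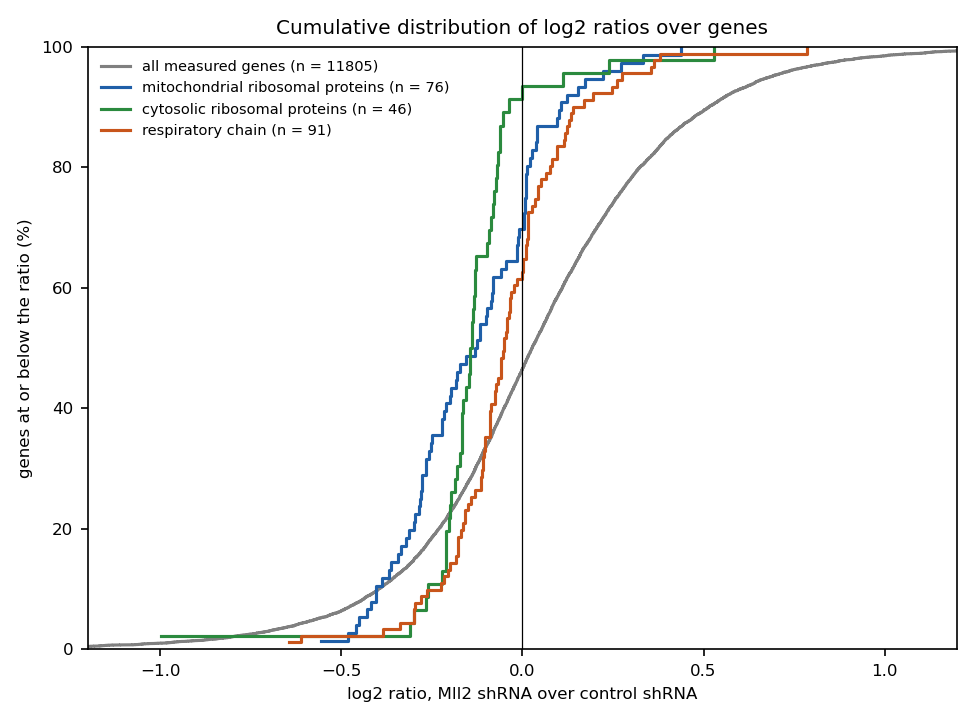
Share of genes (vertical axis, %) at or below each log2 ratio (horizontal axis, Mll2 shRNA over control shRNA) for mitochondrial ribosomal protein genes, cytosolic ribosomal protein genes, respiratory chain genes and all measured genes. At a ratio of 0 the curves stand at 69.7%, 93.5%, 62.6% and 46.5%, and ratios beyond -1.2 or 1.2 are not drawn.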

How the data were processed

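The authors deposited a table of log2 values for 45101 probe sets, 1 array per group. Per the submitters' processing notes it was made with MAS5, whose version is not given in the sources used here. MAS5 takes each probe set alone and subtracts mismatch signal, which makes dim values noisy. The 2% trimmed mean of the signals was 500.0 on both arrays. Leaving out 64 control probe sets, 34945 had 1 gene symbol in the platform annotation, 932 several and 9160 none. Symbols of other genes were updated by Entrez number to GRCm38.p6. Values below the floor (50th percentile of pooled values, 6.02) were raised to it, and 11805 genes were measured.

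The members, lists and rules were chosen with earlier results of these data known. Named members are the 8 highest and 8 lowest ratios, the 5 brightest and 5 dimmest, those whose probe sets differ by over 0.8 and those misplaced by name. Others, such as members of the 3 structural groups, were named after their values were seen. From each pathway list the 3 largest differences are named. Rps6k kinases were kept out of the cytosolic list. The 1.4826-scaled median absolute deviation of the 500 genes nearest in level gave the spread. The steps were tested on simulated data with planted differences far larger than those of the members, so this test does not cover differences of their size. The alternatives were 4 scalings, 3 floors, a pseudocount, and other choices of probe sets or symbols. Python 3.11.15, numpy 2.4.6, pandas 2.3.3, statsmodels 0.14.6 (loess, span 0.3) and matplotlib 3.10.9 were used. The number of arrays limits the precision.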

Additional observations from a re-analysis of the deposited data

How the results depend on the processing

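The members' median ratio of -0.13 stayed below 0 under all 11 alternatives, and scaling on the spike-in controls moved it to -0.0107, that of the Mrpl genes to 0.0161 and that of the Mrps genes to -0.0649. The count of members at least 1.5-fold lower went from 0 to 1 with quantile normalization and with loess (Mrpl1 each time, at -0.60 and -0.59). It was also 1 without probe sets carrying the suffixes _s_at, _x_at and _a_at, and so was the count at 2-fold (Mrpl15, at -1.25). That alternative left 61 members measured. The count of members below 0, set against the alternatives only after seeing the data, ran from 39 with spike-in scaling to 57 with loess. Of 270 other values of the 25 members named by the rule, 261 moved by less than the spread. The 9 that moved more all came from another choice of probe set, with Mrpl34 at 0.08 in the mean over probe sets and Mrpl38 at -0.23 without suffix probe sets. Many of the 270 could not move at all. These are the values under the floors and current symbols, and those of members with 1 measured probe set under another choice of probe set. No paired analysis was possible because each group had 1 array. With 1 array a group, a difference of the size seen here cannot be told from variation between cultures or hybridisations.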

Other observations

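The platform annotation gave several symbols to 4 probe sets that include a mitochondrial ribosomal protein gene, so none of them was named or counted. The probe set for Mrpl30 and Gm6238 was at 12.53 with the Mll2 shRNA and 12.75 with the control shRNA, that for Mrpl53 and Ccdc142 at 11.10 and 10.99, and that for Mrps34 and Nme3 at 9.67 and 9.41. The fourth, also for Mrpl30 and Gm6238, was below the floor on both arrays. Mrpl30 and Mrpl53 have no other probe set on the array under a single symbol.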
